A study of Mus musculus with 2 samples.

Results

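The genes described here are 9 immediate early response genes, Fos, Fosb, Jun, Junb, Atf3, Dusp1, Zfp36, Ier2 and Ier3, among 18193 genes named by at least 1 probe set of the array. They were taken as a named list, without the Egr genes, and every probe set that GEO's platform annotation gave to exactly 1 of them was read, which came to 10 probe sets. RNA of the tissue between the hind limb digits of E13.5 mouse embryos was hybridised to Affymetrix arrays, 1 from embryos homozygous for Hammer toe, a mutant with webbed digits, and 1 from wild-type B6 embryos. The Hammer toe labels name no strain, so strain and genotype cannot be told apart. The study design mentions 3 sets of 5 littermates, 15 embryos in each genotype, and how these relate to the single array of each genotype is not given in the sources used here. The tissue was the interdigital regions that the protocol calls ID2 and ID3, dissected in cold PBS.

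Immediate early genes are transcribed within minutes of a growth factor, cytokine or stress signal, without new protein synthesis, largely by factors that wait on their promoters for phosphorylation by MAP kinases. Fos and Jun proteins pair through leucine zippers into AP-1, a transcription factor that carries the signal on to later genes, while other early genes encode proteins that switch the signal off again. In dissected tissue the same genes can also respond to handling, so their levels are a common check on how alike 2 samples were treated.

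The early response genes did not move as a group. Of the 9 genes, 8 were measured, 4 of them higher and 4 lower on the Hammer toe array, and the median of their log2 ratios, taken as Hammer toe over wild type, was 0.00, against 0.01 over all 11621 measured genes. Genes were treated as measured where at least 1 array exceeded an intensity of 78.1, the median of all values, which served as a floor for noise. Atf3 was 1.52-fold higher in Hammer toe and Zfp36 1.20-fold lower, and the other 6 measured genes lay within 1.1-fold. Of all measured genes, 55.7% lay within 1.1-fold and 51.7% were higher in Hammer toe. Atf3 was the 1 measured member at 1.5-fold or more, and no member was 1.5-fold lower. That size was reached by 2.17% of all measured genes in the upward direction and by 1.39% in the downward direction, and by 2.21% of all measured probe sets upward and 1.8% downward. There was no replicate array, so the values carry no error between samples, no test was possible, and every ratio compares these 2 arrays. Both arrays had a median intensity near the floor, 78.5 in Hammer toe and 78.1 in wild type, and the same mean of 500 after 2% was trimmed from each end. The floor was set from these same values, and equal means follow from scaling each array to a common level. Neither therefore shows how alike the samples were. Since a single measurement of each genotype cannot show its own spread, the ratios are set beside those of all probe sets of like brightness. Among probe sets reading at most 200 on the brighter array, the absolute log2 ratio that held 95% of them was 0.67, a 1.60-fold difference. It was 0.54 (1.45-fold) between 200 and 1000 and 0.32 above 1000. Probe sets of the same gene differed in log2 ratio with a pooled SD of 0.21, over 5134 genes that had more than 1 probe set above the floor in both genotypes.

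**Figure D1:**
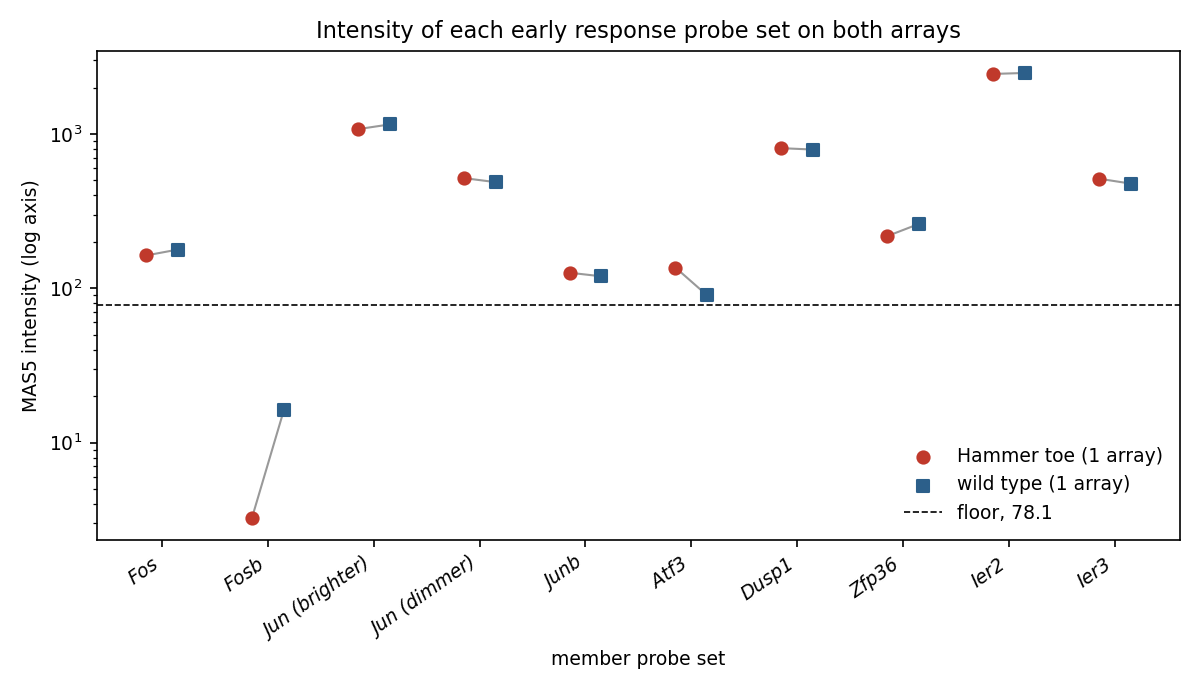
MAS5 intensity (log axis) of the 10 probe sets of the 9 early response genes, with the Hammer toe array as circles and the wild-type array as squares, 1 array each, so there are no error bars. All probe sets but that of Fosb lie above the floor of 78.1 (dashed) on both arrays, and the pair for Atf3 is the widest of those above it.

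Among the AP-1 subunits, Fos, the partner that cannot pair with itself and needs a Jun protein, read 163 in Hammer toe and 178 in wild type. Its log2 ratio of -0.13 was a 1.09-fold lower level in Hammer toe, inside the range of 95% of probe sets of that brightness. Fosb, the second Fos family member on the list, read 3.27 in Hammer toe and 16.2 in wild type. Both values were far under the floor, so Fosb was not measured and no fold is given for it.

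Jun, the main partner of Fos, had 2 probe sets, and they went opposite ways. The brighter read 1074 in Hammer toe and 1153 in wild type, a log2 ratio of -0.10. The dimmer read 518 in Hammer toe and 487 in wild type, a log2 ratio of 0.09. The gap of 0.19 between these 2 ratios is larger than either ratio and under the pooled SD between probe sets of a gene, so Jun showed no direction that both of its probe sets shared. Junb, a Jun family member that often restrains Jun, read 126 in Hammer toe and 120 in wild type, a log2 ratio of 0.08. The probe sets of the AP-1 subunits measured here, Fos, Jun and Junb, all lay inside the range of 95% of probe sets of like brightness.

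Atf3, a stress-induced zipper factor of the ATF/CREB family that pairs with Jun proteins and can repress its own promoter, was the furthest from wild type. It read 136 in Hammer toe and 89.9 in wild type, a difference of 46.4 intensity units and a log2 ratio of 0.60. Both values were dim, the wild-type one little above the floor, and a single probe set represents the gene. Among the 6361 measured probe sets as dim as this, up to 200 on the brighter array, 4.43% passed 1.5-fold upward and 3.8% downward, and the ratio of Atf3 was inside the 1.60-fold range that held 95% of them. After quantile normalization the log2 ratio was 0.58, just short of 1.5-fold, and with a pseudocount in place of the floor it was 0.35.

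Markers of several other cell types lay in the same direction as Atf3. Macrophage genes were higher in Hammer toe for 13 of 14, with summed intensities of 6080 in Hammer toe and 4877 in wild type. Surface ectoderm genes were higher for 10 of 13, with sums of 18781 in Hammer toe and 15149 in wild type. Muscle genes were higher for 5 of 7 measured, with sums over the 10 listed of 1644 in Hammer toe and 1136 in wild type. Schwann cell genes were higher for 3 of 4 measured, but Sox10 among them only by a bound of 0.00, its wild-type value being under the floor. Endothelial genes went both ways, with 4 higher and 5 lower of 9. Other lists ran against Atf3. Cartilage genes were lower for 7 of 8, with sums of 9166 in Hammer toe and 14348 in wild type. Erythroid genes were lower for 7 of 7 measured, with sums of 49811 in Hammer toe and 58058 in wild type. At least 1.5-fold higher were 3 of 14 macrophage, 3 of 7 muscle and 1 of 4 Schwann cell genes, and no surface ectoderm or endothelial gene. At least 1.5-fold lower were 5 of 8 cartilage genes and 1 of 7 erythroid genes. The shares of all measured genes were 2.17% higher and 1.39% lower. No marker was at 0 on either array, and Myf5, Pax3 and Pax7 of the muscle list were under the floor on both. The part of these cells in the level of Atf3 was not tested. In bulk tissue, a change in the number of cells of a type and a change in RNA per cell cannot be told apart. All 12 markers of interdigital mesenchyme were measured, as the labelled tissue calls for. Of these, 3 were higher and 9 lower in Hammer toe, and the 2 that passed 1.5-fold were the T-box genes Tbx2 and Tbx3, higher by log2 ratios of 0.70 and 0.80.

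**Figure D2:**
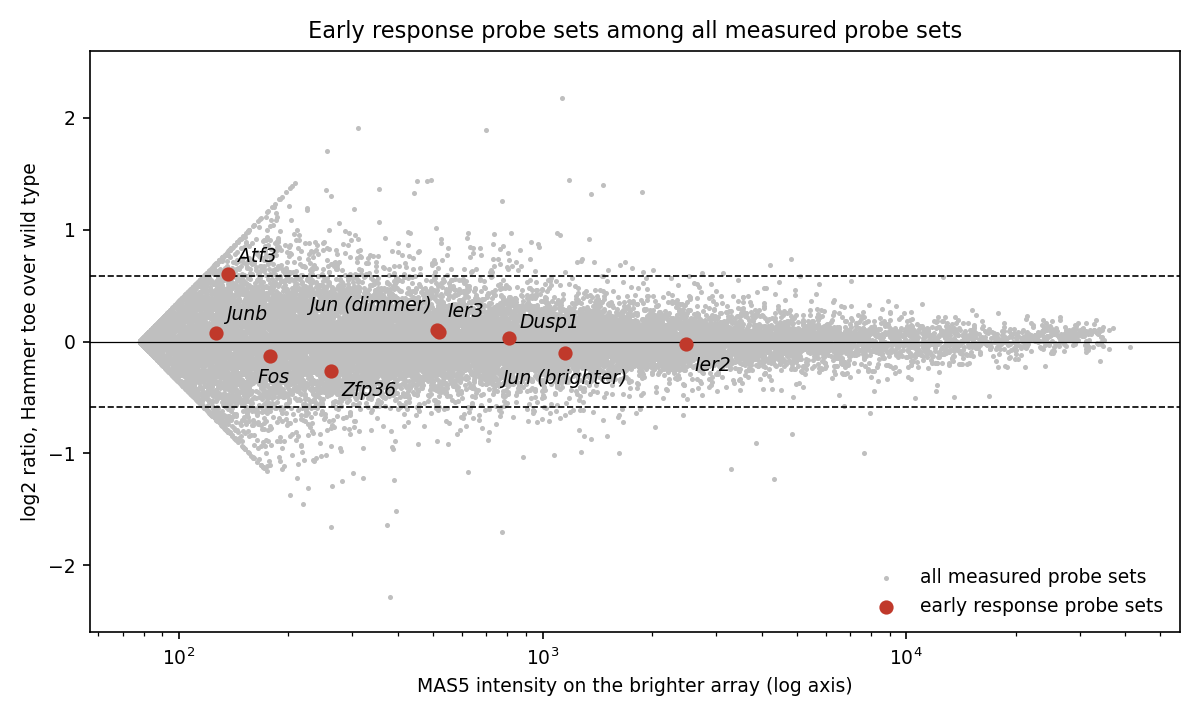
Log2 ratio (Hammer toe over wild type) of each measured probe set against its intensity on the brighter array (log axis), with all 23520 measured probe sets in grey and the 9 measured early response probe sets in red. Dashed lines mark 1.5-fold in either direction; Atf3 lies just above the upper line, at the dim end where grey points spread widest, and the other members lie near 0.

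Of the genes that end the response, Dusp1 was near wild type and Zfp36 was 1.20-fold lower. Dusp1, a phosphatase that inactivates MAP kinases, read 809 in Hammer toe and 792 in wild type, a log2 ratio of 0.03. Zfp36, or tristetraprolin, which binds AU-rich elements of short-lived mRNAs such as that of Tnf and sends them to decay, read 218 in Hammer toe and 261 in wild type. Its log2 ratio of -0.26 made it the lowest member, within the 1.45-fold range of 95% of probe sets of that brightness. Its probe set, like that of Ier3, is of the _a_at type, which can read several transcripts of 1 gene.

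Both Ier genes were close to wild type. Ier2, which encodes a small early response protein of the nucleus, read 2449 in Hammer toe and 2484 in wild type. It was the least changed member, at a log2 ratio of -0.02. Ier3, an early gene linked to cell survival under stress, read 513 in Hammer toe and 477 in wild type, a log2 ratio of 0.11. Over the 9 measured probe sets, 5 were higher and 4 lower in Hammer toe, and 8 lay within 1.3-fold. By gene, 7 of 8 lay within 1.3-fold, as did 89.1% of all measured genes. Without Atf3 the members spanned 0.37 on the log2 scale, from -0.26 to 0.11, with a median of -0.02.

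The sequences just upstream of 5 of these genes are shown because they carry the elements through which early genes are known to respond, and because the 5 include the members furthest above and below wild type. RefSeq promoters of build GRCm38.p6 were at hand for 8 of the 9 members, all but Ier2, and the 250 bases before each start were searched on both strands. The motifs were chosen with these sequences in view. They were TGACG, the core of the cyclic AMP response element bound by CREB and ATF proteins, TGACGTCA, the full element, which holds TGACG on both strands, TGACATCA, a variant of it, TGANTCA, the AP-1 site, GGGCGG, the GC box, and the CArG box bound by serum response factor. Capitals mark TGACG on either strand in Fos, Atf3 and Dusp1, where the second match is the full element, TGACATCA in Jun and the CArG box in Zfp36.
Fos (chr12:85473640-85473889, plus strand): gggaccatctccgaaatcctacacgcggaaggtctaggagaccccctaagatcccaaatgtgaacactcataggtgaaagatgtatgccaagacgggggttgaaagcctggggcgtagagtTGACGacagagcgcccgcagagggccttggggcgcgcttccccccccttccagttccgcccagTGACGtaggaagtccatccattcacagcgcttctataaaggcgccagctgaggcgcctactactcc
Jun (chr4:95052223-95052472, minus strand): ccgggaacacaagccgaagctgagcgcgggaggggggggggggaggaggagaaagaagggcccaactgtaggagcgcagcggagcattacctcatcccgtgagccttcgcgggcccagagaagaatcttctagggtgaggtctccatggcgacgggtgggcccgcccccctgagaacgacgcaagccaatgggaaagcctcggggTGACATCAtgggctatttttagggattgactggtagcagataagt
Atf3 (chr1:191183334-191183583, minus strand): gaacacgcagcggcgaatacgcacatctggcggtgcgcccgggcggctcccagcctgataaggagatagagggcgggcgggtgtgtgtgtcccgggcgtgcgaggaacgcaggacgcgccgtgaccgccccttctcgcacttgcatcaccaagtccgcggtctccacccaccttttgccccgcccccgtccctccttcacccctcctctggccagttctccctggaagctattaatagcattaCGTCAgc
Dusp1 (chr17:26508473-26508722, minus strand): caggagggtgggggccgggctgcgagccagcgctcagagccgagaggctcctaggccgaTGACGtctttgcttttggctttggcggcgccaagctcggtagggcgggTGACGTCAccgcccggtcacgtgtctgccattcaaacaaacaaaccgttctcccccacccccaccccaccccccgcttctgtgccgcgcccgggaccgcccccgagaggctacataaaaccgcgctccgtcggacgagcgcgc
Zfp36 (chr7:28379229-28379478, minus strand): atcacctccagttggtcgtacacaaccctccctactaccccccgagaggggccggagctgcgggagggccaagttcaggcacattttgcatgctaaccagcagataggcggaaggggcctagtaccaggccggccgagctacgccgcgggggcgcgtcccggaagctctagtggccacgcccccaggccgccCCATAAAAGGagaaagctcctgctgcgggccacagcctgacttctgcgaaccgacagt

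TGACG was present in 5 of the 8 windows, those of Fos, Fosb, Junb, Atf3 and Dusp1, and in 17.8% of all 32851 promoter windows of the same length. The full TGACGTCA was present in Dusp1 alone among the 8, from 143 to 136 bases before the start, and in 1.55% of all windows. TGACATCA was in Jun alone, from 45 to 38 bases before the start, and in 2.93% of all windows. The CArG box was in Zfp36 alone, from 58 to 49 bases before the start, overlapping the end of a GC box by a base, and in 1.47% of all windows. The GC box was in 7 of the 8, all but Junb, and in 32.7% of all windows. TGANTCA was in none of the 8 and in 6.75% of all windows. Genes that held TGACG included Atf3, with a log2 ratio of 0.60, as well as Fos at -0.13, Dusp1 at 0.03 and Junb at 0.08, so these genes shared letters and not a direction. A match describes the window only and does not show a site in use. Bases further upstream than 250 were not searched, so a motif missing from a window may still lie outside it.

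Genes around the members in the pathway also had ratios in both directions. Of the 94 measured in the 7 pathway and stress lists, 4 lay beyond the range of 95% of probe sets of their brightness, as did 4.9% of all measured genes and none of the 8 measured members. Among 12 measured AP-1 and related zipper genes outside the members, 7 were higher and 5 lower in Hammer toe, none by 1.5-fold, with a median log2 ratio of 0.03. Fosl2, a further Fos family member, was highest at 0.44, with intensities of 258 in Hammer toe and 190 in wild type. Its second probe set, under the floor in wild type, gave a bound of at least 0.11. Atf7, an ATF family member, was lowest at -0.56, with 133 in Hammer toe and 196 in wild type. Batf and Fosl1 were under the floor on both arrays.

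Of 29 other early response genes measured, 18 were higher and 11 lower in Hammer toe, with a median log2 ratio of 0.05. Csrnp1, which encodes a cysteine- and serine-rich nuclear protein, was the 1 gene of all 7 pathway and stress lists to pass 1.5-fold. It lay outside the range of 95% of probe sets of its brightness, a range that values raised to the floor may make too narrow. It was 1.68-fold lower, with 79.0 in Hammer toe, just above the floor, and 133 in wild type. Nfil3, a zipper repressor, and Myc, the growth regulator, were highest at 0.55 and 0.53, and were chosen as examples after their values were seen. Nfil3 read 673 in Hammer toe and 459 in wild type, slightly beyond the range of 95% of probe sets of its brightness, and Myc lay within its range. Ptgs2, Nr4a3, Arc and Plk3, which are strongly induced early genes in many cells, were under the floor on both arrays.

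Upstream of the members, 16 measured MAP kinase cascade genes had 7 higher and 9 lower, with a median log2 ratio of -0.03 and all between -0.22 and 0.19. Map3k1, a kinase at the top of the JNK branch, was highest, and Map3k5, a stress-activated kinase of the same tier, was lowest at -0.22 on its brighter probe set and 0.47 on the other. The other MAP kinase phosphatases, relatives of Dusp1, had 3 higher and 5 lower of 8 measured. They ranged from Dusp10 at -0.22 to Dusp5 at 0.32 or more, the wild-type value of Dusp5 being under the floor. Of 5 relatives of Zfp36 and other AU-rich element binders, 1 was higher and 4 lower. Hnrnpd, which binds such elements and promotes decay, was highest at 0.02 on its brightest probe set, while its other measured probe sets stood at -0.001 and -0.45. Elavl1, which binds them and stabilises mRNAs, was lowest at -0.11, and its other measured probe sets ranged from -0.31 to -0.03.

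Among stress genes outside the early response, a pair of small heat shock genes stood furthest above wild type on their brightest probe sets. Hspb8 was higher on that probe set alone. Of 11 measured heat shock genes, 8 were higher and 3 lower in Hammer toe, with a median log2 ratio of 0.12, and none reached 1.5-fold. Hspb8, a small heat shock chaperone, was highest at 0.57 with intensities of 396 in Hammer toe and 267 in wild type, while its other probe sets stood at -0.12 and -0.03. Hspb1, a small chaperone of the same family, read 1506 in Hammer toe and 1037 in wild type, a log2 ratio of 0.54, and its second probe set stood at 0.48; it was added after its value was seen. Both ratios exceeded those that held 95% of probe sets in their brightness class, 0.54 for Hspb8 and 0.32 for Hspb1. The class of Hspb1 took in all 7420 probe sets above 1000, and Hspb1 lay at its dim end. Its ratio was about equal to the 0.54 that held 95% of probe sets between 200 and 1000. Dnajb1, a co-chaperone that heat shock induces, was lowest at -0.11. Of 13 measured genes of the unfolded protein and integrated stress responses, in which Atf3 also takes part, 5 were higher and 8 lower, with a median of -0.02. Atf5, a zipper factor of that response, was highest at 0.44, with 490 in Hammer toe and 360 in wild type, and Ddit4, a stress-induced inhibitor of growth signalling, was lowest at -0.29. Atf4, which can induce Atf3, read at 0.03, and Ddit3 of the same list at 0.43, with 281 in Hammer toe and 208 in wild type. Both were chosen after their values were seen. The list medians thus lay between -0.07 and 0.12, close to the 0.01 of all measured genes.

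**Figure D3:**
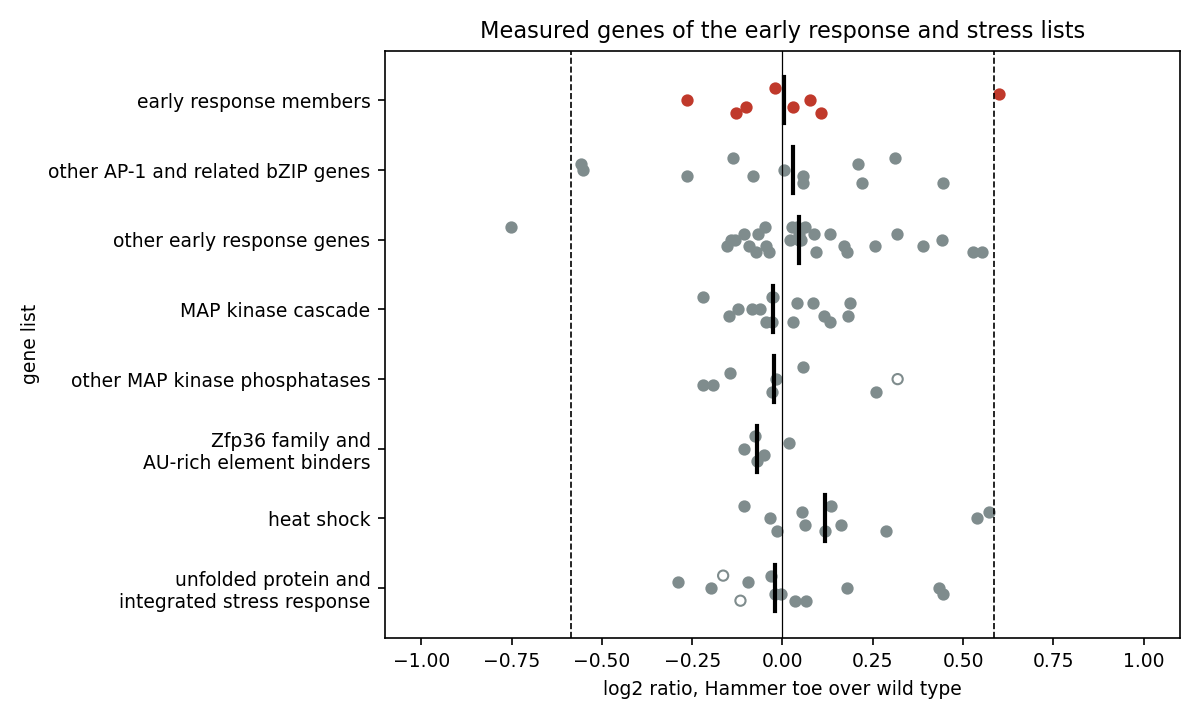
Log2 ratio (Hammer toe over wild type) of each measured gene on its brightest probe set, by list, with the early response members in red. Open circles are genes with 1 array under the floor, which may lie further from 0 than drawn, black bars are list medians and dashed lines mark 1.5-fold; only Atf3 and Csrnp1 lie beyond those lines, on opposite sides.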

How the data were processed

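The authors deposited linear MAS5 intensities, a single value for every probe set on each array. Per the submitters' processing notes these came from Affymetrix Expression Console, with no version named. Per the labels' protocols, RNA came from RNeasy columns and cRNA was made from 250 ng of it. MAS5 scales each array to a common level, so a shift of most transcripts in one direction cannot be seen.

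Of 45101 probe sets, 64 controls were left out. GEO's platform annotation, with symbols updated through RefSeq gene IDs, gave 1 gene to 34945 of the others, several to 932 and none to 9160. Intensities below the floor, the median of both arrays, were set to the floor, and log2 ratios with wild type as denominator were computed with Python 3.11.15 and pandas 2.3.3. The brightest probe set stood for a gene in counts. With 1 array of each genotype no test was run. Named genes were all members and, in each other pathway or stress list, genes at 1.5-fold or more (at most 6). Where a list had none, the largest in each direction were named. Further examples are marked as chosen after their values were seen. Cell type marker lists are given by counts and sums, with a few markers named in the text. Members and lists were chosen with earlier results of these data known. The script was tested on simulated data. Alternatives changed the scaling, the floor, the size of change and the use of probe sets. Promoter windows were read from RefSeq tables of GRCm38.p6, without the transcribed bases.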

Additional observations from a re-analysis of the deposited data

How the results depend on the processing

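All 11 alternatives were planned. None changed which measured members were higher or lower: 4 were on each side under median centring, quantile normalization, a lowess correction (span 0.3), a floor at the 25th percentile, a pseudocount and the mean over probe sets. The count at 1.5-fold or more higher, which rests on Atf3, was 0 for genes and 0 for probe sets with quantile normalization, with a floor at the 75th percentile, where 4 member genes were measured and Atf3 was not, with a pseudocount, and at 2-fold. The count at 1.5-fold or more lower was 1 for both without a floor, where Fosb entered with a log2 ratio of -2.31 between 2 values in the noise; without a floor 13.0% of all genes were 1.5-fold higher and 12.6% lower. Of 66 values for measured genes, 1 moved by more than the pooled SD between probe sets, that of Atf3 with a pseudocount, which shrinks dim ratios by construction. Dropping the _x_at, _s_at and _a_at types removed Zfp36 and Ier3 and left 3 members higher and 3 lower. Medians over members stayed within that SD under every scaling, floor and probe set alternative. No paired analysis was possible because each genotype has a single array. The number of arrays limits the precision, most for dim members such as Atf3, Junb and Fos.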
